A study of Mus musculus with 7 samples.

Results

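The 7 genes described here encode coregulators of the vitamin D receptor (VDR): the coactivators Ncoa1, Ncoa2 and Ncoa3, the Mediator subunit Med1, the histone acetyltransferases Crebbp and Ep300, and the corepressor Ncor1. The members are all VDR peaks whose centre lay within 50 kb of one of these gene bodies in the mouse genome build mm9. They merged into 104 of the 87029 regions of the whole series, and the 7 genes are compared with all 22367 protein-coding genes. The assay was chromatin immunoprecipitation and sequencing with an anti-VDR antibody in epithelial cells released with EDTA from the proximal part of the small intestine, labelled as duodenum and jejunum. All mice were wild-type, fed chow and 8 weeks old. One group received vehicle. The other received 1,25(OH)2D3, which is the active vitamin D hormone, in a dose of 10 ng per g body weight, and the intestine was collected after 1 h. The libraries of the latter group are called hormone libraries below. Each group has 3 libraries, and the labels do not say whether each came from its own mouse, so any p-value measures the spread between these libraries only. The single input carries the label of the hormone dose. The files hold peak positions and no expression values, so the epithelial identity of the cells was not tested against markers, and a peak near a gene does not show that the gene responds.

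VDR binds DNA as a heterodimer with a retinoid X receptor, typically at a DR3 element, 2 hexamers in direct repeat with 3 bases between them. With ligand bound, VDR recruits coactivators: the p160 proteins encoded by Ncoa1, Ncoa2 and Ncoa3 bring in the acetyltransferases CBP (Crebbp) and p300 (Ep300), and Med1 links the receptor to Mediator and RNA polymerase II. Ncor1 is a corepressor that brings histone deacetylase to nuclear receptors, mostly those without agonist. The values below concern VDR peaks near the genes of these proteins, not binding of the proteins themselves.

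The windows below are shown because they carry the DR3 matches described in the results. They are 3 of the 6 regions found in all 6 libraries, 3 of the 6 called in each hormone library but never with vehicle (hormone-only regions), and a region at an internal Ncor1 start. Those of the first 2 kinds have the fewest mismatches to the DR3 element in their class, with ties settled by list position. Mismatches were counted against a pattern with the same hexamer on both sides of any 3 bases. In order, its hexamer is A or G, then G, then G or T, then T, then C or G, then A. A match with 0 mismatches can thus hold 2 hexamers that differ from each other. Each is 201 bases around the region's centre, read from the mm9 genome 5′ to 3′ on the strand of the match, and the 2 hexamers of the closest DR3 match are in capitals.
Ncor1, 28.6 kb upstream, all 6 libraries, 1 mismatch (chr11:62300544-62300744, minus strand): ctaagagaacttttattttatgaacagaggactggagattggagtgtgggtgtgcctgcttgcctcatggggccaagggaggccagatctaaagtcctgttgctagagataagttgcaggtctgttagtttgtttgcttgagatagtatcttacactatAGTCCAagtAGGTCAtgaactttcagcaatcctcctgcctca
Ncor1, 36.3 kb upstream, all 6 libraries, 2 mismatches (chr11:62308266-62308466, plus strand): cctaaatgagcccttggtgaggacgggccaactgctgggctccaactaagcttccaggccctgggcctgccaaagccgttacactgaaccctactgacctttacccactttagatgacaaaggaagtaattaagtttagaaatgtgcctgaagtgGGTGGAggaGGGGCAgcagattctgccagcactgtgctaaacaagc
Ncoa2 intron, 86.3 kb, all 6 libraries, 2 mismatches (chr1:13277761-13277961, plus strand): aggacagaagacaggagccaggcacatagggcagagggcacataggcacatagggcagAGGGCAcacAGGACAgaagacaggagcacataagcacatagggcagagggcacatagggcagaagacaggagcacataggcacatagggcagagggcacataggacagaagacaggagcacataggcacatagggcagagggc
Ncoa3 promoter, 0.228 kb upstream, hormone-only, 2 mismatches (chr2:165817808-165818008, minus strand): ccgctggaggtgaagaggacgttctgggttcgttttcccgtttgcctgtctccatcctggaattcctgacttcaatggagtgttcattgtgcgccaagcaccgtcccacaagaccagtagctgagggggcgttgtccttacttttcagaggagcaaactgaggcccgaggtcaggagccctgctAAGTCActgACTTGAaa
Ncoa2 intron, 84.1 kb, hormone-only, 1 mismatch (chr1:13280001-13280201, plus strand): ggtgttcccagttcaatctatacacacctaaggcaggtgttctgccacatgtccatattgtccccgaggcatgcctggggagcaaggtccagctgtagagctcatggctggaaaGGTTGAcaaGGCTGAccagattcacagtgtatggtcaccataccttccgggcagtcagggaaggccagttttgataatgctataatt
Beyond the end of Ncoa3 in an intron of Sulf2, 123.6 kb from the Ncoa3 start, hormone-only, 0 mismatches (chr2:165941677-165941877, plus strand): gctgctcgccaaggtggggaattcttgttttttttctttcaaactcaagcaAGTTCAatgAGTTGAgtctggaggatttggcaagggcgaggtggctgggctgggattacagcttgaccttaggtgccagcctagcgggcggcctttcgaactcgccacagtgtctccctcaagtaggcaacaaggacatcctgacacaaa
Ncor1 internal start, 1.79 kb, 1 mismatch (chr11:62270158-62270358, minus strand): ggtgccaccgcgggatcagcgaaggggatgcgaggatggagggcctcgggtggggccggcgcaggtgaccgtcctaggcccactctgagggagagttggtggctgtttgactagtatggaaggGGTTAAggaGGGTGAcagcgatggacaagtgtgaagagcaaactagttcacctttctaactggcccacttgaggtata
The Ncoa2 window at 86.3 kb is made of a short unit repeated in tandem, so its hexamers recur along it. In the Ncoa3 promoter the match lies 91 bp from the centre of the region, near the edge of the window, and in the Sulf2 intron 42 bp from it.

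The libraries held 15991198 to 68560701 tags and 8755 to 48424 peaks on the chromosomes used, and in both groups replicate 3 was sequenced most deeply. The share of tags in peaks was 2.58% to 8.10% with vehicle and 11.86% to 18.96% with 1,25(OH)2D3. The part of this depth in peak numbers near a gene was not tested. At 6 of the 7 genes, all but Crebbp, the highest vehicle count was that of replicate 3 alone, as at 15384 of the 22367 protein-coding genes.

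Near Ncoa3, every hormone library held more VDR peaks than every vehicle library, and near the other 6 genes the groups overlapped. Over all protein-coding genes, 16.0% had no overlap in this direction, so 1 of 7 is close to the background. In the opposite direction none of the 7 genes separated the groups, against 0.0447% of all genes. The mean peak number was higher with 1,25(OH)2D3 at 6 of the 7 genes and lower at Med1, and it was higher at 63.6% of all genes. Per 10000 peaks of each library the tally turned: the mean was higher at 2 of the 7 genes, Ncoa1 and Ncoa3, and lower at the other 5, while it was higher at 49.0% of all genes. With lists of equal length, the first 8756 listed peaks of each library, it was higher at Ncoa3 alone. The share of all genes was not computed with such lists. The median difference was 1.33 peaks per library over the 7 genes and 0.667 over all protein-coding genes, whose median body length is 15.4 kb against 129.4 kb here. The smallest exact permutation p that 3 libraries against 3 can give is 0.1, so none of these genes could pass 0.05. Of 20254 genes with a peak, 0 had an unadjusted exact permutation p under 0.05.

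**Figure D1:**
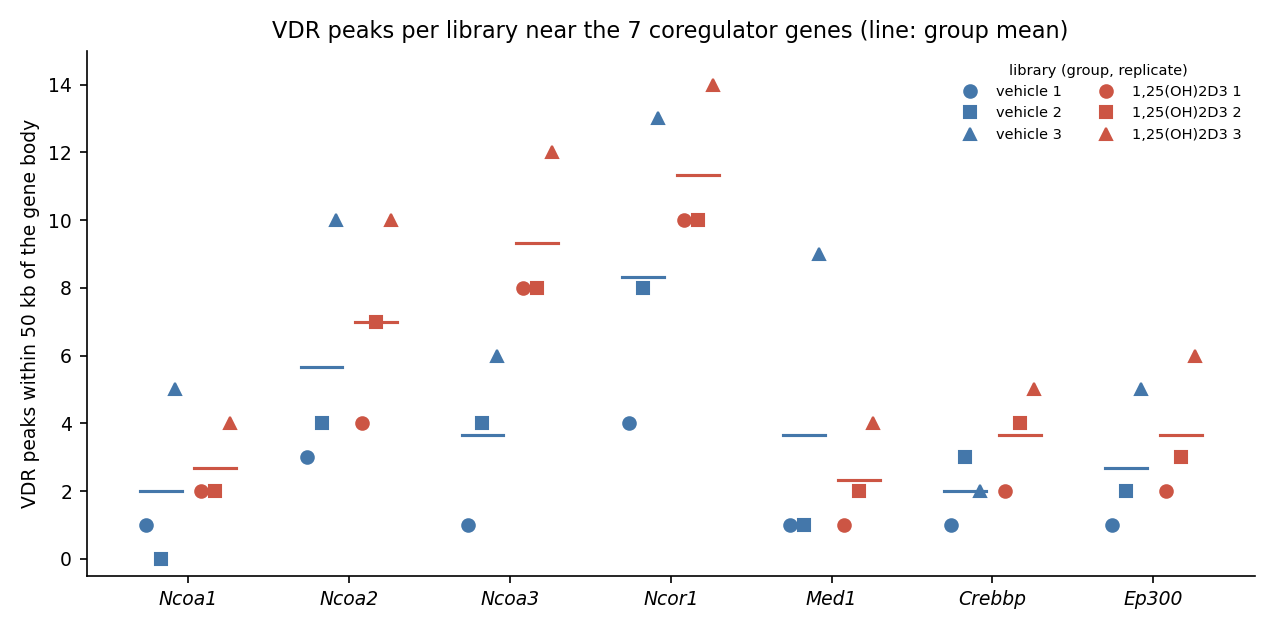
Number of VDR peaks with centre within 50 kb of each gene body (vertical axis), for the 3 vehicle (blue) and 3 1,25(OH)2D3 libraries (red); symbols give the replicate and lines the group means. Near Ncoa3 the 1,25(OH)2D3 libraries sit at 8, 8 and 12, above the vehicle libraries at 1, 4 and 6, while the groups overlap at the other 6 genes.

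Ncoa3 (ENSMUSG00000027678.10, chromosome 2, 165818136 to 165898742, plus strand) encodes the p160 coactivator also known as SRC-3 or AIB1. Its peak numbers were 1, 4 and 6 in vehicle replicates 1, 2 and 3 and 8, 8 and 12 in 1,25(OH)2D3 replicates 1, 2 and 3. The lowest 1,25(OH)2D3 library was above the highest vehicle library. The means were 3.67 ± 2.52 with vehicle and 9.33 ± 2.31 with 1,25(OH)2D3 (SD, n = 3), a difference of 5.67 peaks (exact two-sided permutation p = 0.1, adjusted over all genes 0.564). Scaled to 10000 peaks of each library, the groups overlapped. The scaled values were 1.14, 2.69 and 1.24 with vehicle and 3.14, 2.63 and 2.88 with 1,25(OH)2D3, where 10.0% of all genes had no overlap in this direction and 1.64% in the other, against none of the 7 genes in either. Vehicle replicate 2 was the library that lay within the 1,25(OH)2D3 range. With lists of equal length the difference was 0.333 peaks.

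Of the 20 regions near Ncoa3, 4 were hormone-only and none was in all 6 libraries, against 5.39% and 4.99% of all regions. These 4 are all named here, a choice made after their values were seen. The first was at the promoter, centred 0.228 kb upstream of the gene start (chromosome 2, 165817757 to 165818059). Its list positions were alike, at 70.6, 74.0 and 73.3 in 1,25(OH)2D3 replicates 1, 2 and 3. A list position is the percentile of the peak in the order of its library's list, 100 for the first peak, and is no measured occupancy. The nearest vehicle peak lay 3.04 kb from this region, in an intronic region 3.15 kb downstream of the start (165821094 to 165821476). That intronic region was in vehicle replicates 1 and 2, at list positions of 26.6 and 11.6. Vehicle replicate 3, the deepest vehicle library, and the hormone libraries held no peak there. The promoter region also lies over the first exon of Gm11464, a noncoding gene on the opposite strand. The start of Gm11464 is 119 bp from that of Ncoa3, so the promoter peak cannot be assigned to one of the 2 genes by position.

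Inside Ncoa3, intronic regions 10.0 kb (165827986 to 165828306) and 38.7 kb (165856631 to 165857051) downstream of the start were hormone-only as well. Their mean list positions were 52.3 and 60.3. The first of them had a vehicle replicate 2 peak 263 bp from its edge, counted as a separate region, while the nearest vehicle peak to the second was 4.28 kb away. The fourth region was 123.6 kb from the start (165941612 to 165941942), in an intron of Sulf2, a heparan sulfate sulfatase, at a mean list position of 23.3. A region 28.3 kb upstream (165789698 to 165790039) was shared by the hormone libraries and vehicle replicate 3. Another in Sulf2, 130.3 kb from the start (165948206 to 165948632), was in all libraries but vehicle replicate 1. One region 67.7 kb into Ncoa3 (165885659 to 165885939), within 1 kb of an internal annotated start, was in vehicle replicate 3 alone.

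Ncoa2 (ENSMUSG00000005886.8, chromosome 1, 13129186 to 13364164, minus strand), the p160 coactivator also known as GRIP1 or TIF2, had the regions shared by the hormone libraries within a stretch of introns 49.5 to 86.3 kb downstream of its start. Its peak numbers were 3, 4 and 10 with vehicle and 4, 7 and 10 with 1,25(OH)2D3 (replicates 1, 2 and 3). The groups overlapped and the deep libraries held 10 each. The means were 5.67 ± 3.79 and 7 ± 3 (SD, n = 3, exact permutation p = 0.8, adjusted 1). The Ncoa2 region found in all 6 libraries was at 86.3 kb (chromosome 1, 13277654 to 13278069), with a mean list position of 64.1. The neighbouring region at 84.1 kb (13279908 to 13280294) was hormone-only, at list positions of 61.6, 43.0 and 68.8, and the nearest vehicle peak lay 1.84 kb away. The region placed highest was at 69.0 kb (13294924 to 13295374), with list positions of 90.1, 90.5 and 93.1 in the 1,25(OH)2D3 libraries and 60.4 and 72.8 in vehicle replicates 1 and 2. It was absent from vehicle replicate 3, the deepest vehicle library. A region at 49.5 kb (13314443 to 13314876) was in all libraries but vehicle replicate 2. Near internal annotated starts of Ncoa2, regions 225.8 kb (13138268 to 13138550) and 222.9 kb (13141164 to 13141444) from the gene start were each in 1 replicate 3 library only.

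Ncoa1 (ENSMUSG00000020647.8, chromosome 12, 4247363 to 4484060, minus strand), the p160 coactivator SRC-1, had the fewest peaks for its length. The counts were 1, 0 and 5 with vehicle and 2, 2 and 4 with 1,25(OH)2D3. The groups overlapped through vehicle replicate 3. The means were 2 ± 2.65 and 2.67 ± 1.15 (SD, n = 3, exact permutation p = 0.8, adjusted 1). Of its 10 regions, 8 were in 1 library only, against 62.6% of all regions. Hormone-only was 1 of the 10, against 5.39% of all, in an intron 97.7 kb downstream of the start (chromosome 12, 4386191 to 4386518). This region stood low in the lists, at 36.1, 23.4 and 32.0. A region 960 bp downstream of the Ncoa1 start (4482959 to 4483241) was in 1,25(OH)2D3 replicate 3 alone.

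Crebbp and Ep300 had no hormone-only region among their 10 and 12 regions, against 5.39% of all regions. Near Crebbp (ENSMUSG00000022521.7, chromosome 16, 4084048 to 4213404, minus strand), which encodes CBP, peak numbers were 1, 3 and 2 with vehicle and 2, 4 and 5 with 1,25(OH)2D3. The groups overlapped, and vehicle replicate 3 was not the highest vehicle library here. The means were 2 ± 1 and 3.67 ± 1.53 (SD, n = 3, exact permutation p = 0.3, adjusted 0.804). Its only region shared by the hormone libraries was in all 6 libraries and lay 176.4 kb from the Crebbp start, beyond the gene's end, at the start of Dnase1 (chromosome 16, 4036761 to 4037193). Inside the Crebbp body no region was shared by all hormone libraries.

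Near Ep300 (ENSMUSG00000055024.5, chromosome 15, 81415781 to 81482507, plus strand), which encodes p300, the counts were 1, 2 and 5 with vehicle and 2, 3 and 6 with 1,25(OH)2D3. Each 1,25(OH)2D3 library exceeded the vehicle library of the same number by 1 peak, and the groups overlapped. The means were 2.67 ± 2.08 and 3.67 ± 2.08 (SD, n = 3, exact permutation p = 0.6, adjusted 1). A region between genes 30.2 kb upstream of the start (chromosome 15, 81385407 to 81385766) was shared by the hormone libraries and vehicle replicate 2. Its list positions were 60.2, 77.1 and 79.5 with 1,25(OH)2D3 and 79.2 in the vehicle library.

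Med1 (ENSMUSG00000018160.9, chromosome 11, 98013468 to 98054607, minus strand), the Mediator subunit that binds nuclear receptors, had 1, 1 and 9 peaks with vehicle and 1, 2 and 4 with 1,25(OH)2D3. Its mean was lower with 1,25(OH)2D3, 2.33 ± 1.53 against 3.67 ± 4.62 (SD, n = 3, exact permutation p = 1, adjusted 1). In these unscaled counts the order rests on vehicle replicate 3. Without that library the difference was 1.33 peaks in the other direction, and with replicates 1 and 2 only it was 0.5. Per 10000 peaks, the values were 1.14, 0.672 and 1.86 with vehicle and 0.392, 0.658 and 0.959 with 1,25(OH)2D3. There, vehicle replicates 1 and 2 also lay above 1,25(OH)2D3 replicates 1 and 2. Of the 13 regions near Med1, 8 were in vehicle replicate 3 alone, against 37.0% of all regions. Of these 8, 6 lay within the neighbouring gene Cdk12, a transcriptional kinase. The 1 region in more than 1 library was in all 6 (chromosome 11, 98063770 to 98064195), 9.38 kb upstream of Med1 and centred at -391 bp relative to the Cdk12 start. Its list positions were 89.3, 93.1 and 98.9 with vehicle and 82.7, 68.5 and 81.6 with 1,25(OH)2D3. Within the Med1 body, a region 13.4 kb downstream of the start (98041017 to 98041299) was in 1,25(OH)2D3 replicate 3 alone.

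Ncor1 (ENSMUSG00000018501.10, chromosome 11, 62129928 to 62272043, minus strand), the corepressor, had the most peaks of the 7 genes and 3 of the 6 regions found in all libraries. The counts were 4, 8 and 13 with vehicle and 10, 10 and 14 with 1,25(OH)2D3. Vehicle replicate 3 lay within the 1,25(OH)2D3 range, and both other vehicle libraries lay below it. The means were 8.33 ± 4.51 and 11.3 ± 2.31 (SD, n = 3, exact permutation p = 0.4, adjusted 0.885). None of its 21 regions was hormone-only, against 5.39% of all regions, and 4.99% of all regions were in all 6 libraries. Of the member regions found in all 6 libraries, the one with the highest mean list position lay 36.3 kb upstream of the Ncor1 start (chromosome 11, 62308218 to 62308514). Its list positions were 96.3, 98.9 and 99.1 with vehicle and 98.6, 97.5 and 98.6 with 1,25(OH)2D3. A region 28.6 kb upstream (62300447 to 62300842) stood between 90.2 and 93.9 in all 6 libraries.

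Both of these regions lie in introns of Pigl, an enzyme of glycosylphosphatidylinositol anchor synthesis, and within the noncoding gene Gm12278. Pigl starts 256 bp from Ncor1 on the opposite strand, so distance does not separate the 2 genes. A region 42.2 kb upstream (62314092 to 62314427), in Pigl as well, was in all libraries but vehicle replicate 3, at list positions of 75.0 to 87.5. The third region in all 6 libraries lay beyond the end of Ncor1 in an intron of Zswim7 (62091495 to 62091884), at 89.0 to 95.4. Inside Ncor1, a region near an internal start 1.79 kb downstream of the gene start (62269991 to 62270526) was in all libraries but vehicle replicate 1, at a mean list position of 51.3. The 3 regions of this neighbourhood found in all 6 libraries thus lay outside the Ncor1 body.

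**Figure D2:**
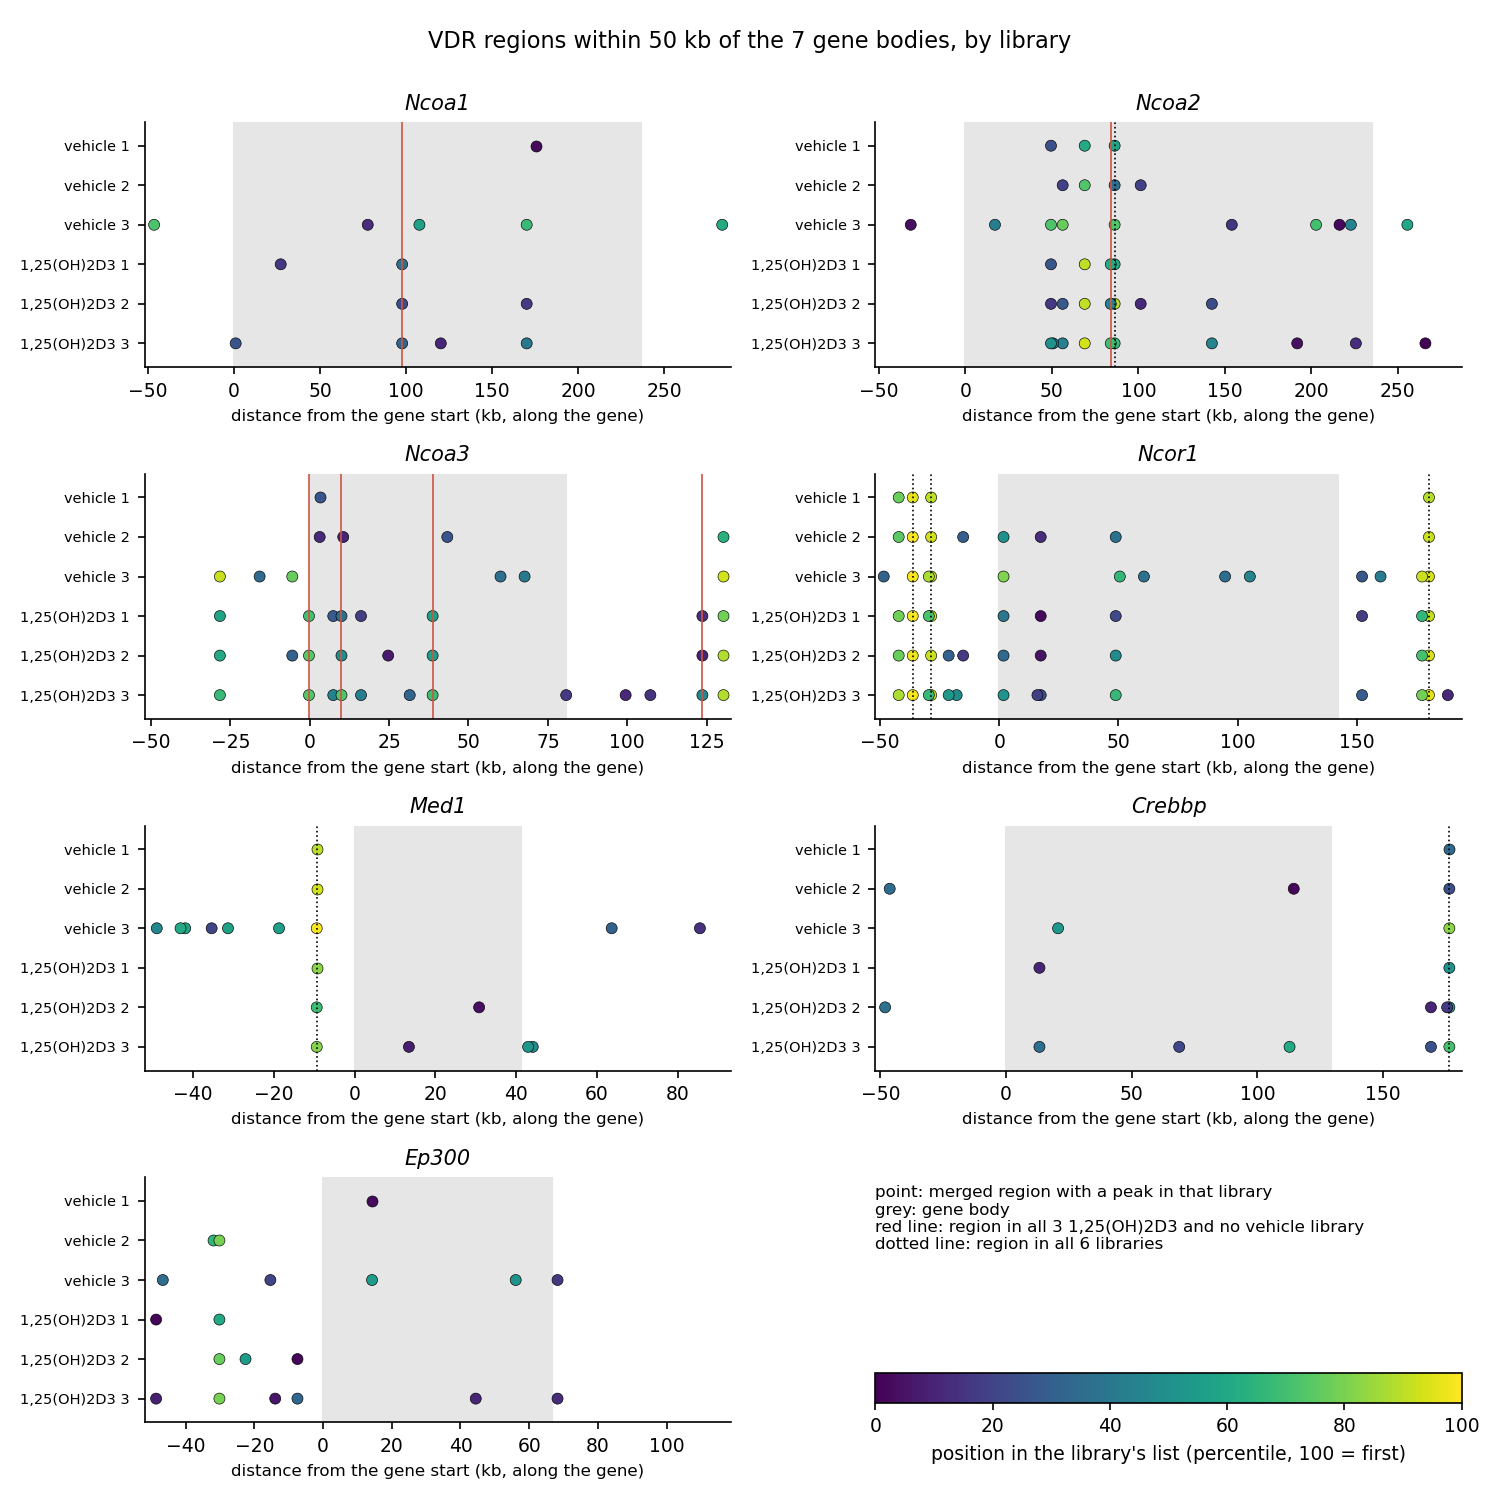
Merged VDR regions near each gene by library; the horizontal axis is the distance from the gene start in kb, each row is a library and colour gives the list position (percentile). Red lines mark the 6 hormone-only regions, 4 of them near Ncoa3, and dotted lines the 6 regions in all 6 libraries, 3 of them near Ncor1.

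Per length of window, Ncoa3 and Ncor1 had the highest peak density with 1,25(OH)2D3. The density was 5.17 ± 1.28 peaks per 100 kb at Ncoa3 and 4.68 ± 0.954 at Ncor1 (SD, n = 3), with overlapping libraries. Then came Ep300 at 2.20 ± 1.25, Ncoa2 at 2.09 ± 0.896, Med1 at 1.65 ± 1.08, Crebbp at 1.60 ± 0.666 and Ncoa1 at 0.792 ± 0.343. The lowest Ncor1 library, at 4.13 per 100 kb, was above the highest Ep300 library, at 3.60, and each other pair of neighbours in this order overlapped. With vehicle, Ncor1 was highest at 3.44 ± 1.86 and Ncoa1 lowest at 0.594 ± 0.786, and the median over all protein-coding genes was 1.11 with vehicle and 1.81 with 1,25(OH)2D3.

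The libraries fall into those of low depth (replicates 1 and 2) and high depth (replicate 3). Among the former, both 1,25(OH)2D3 libraries were above both vehicle libraries at 3 of the 7 genes, Ncoa1, Ncoa3 and Ncor1, against 43.3% of all protein-coding genes. With all 3 hormone libraries set against vehicle replicates 1 and 2 it was the same 3 genes, against 42.3%. The means of replicates 1 and 2 were 8 against 2.5 at Ncoa3, 10 against 6 at Ncor1 and 2 against 0.5 at Ncoa1. Between the deep libraries, the 1,25(OH)2D3 library held more peaks at Ncoa3 (12 against 6), Crebbp (5 against 2), Ncor1 (14 against 13) and Ep300 (6 against 5), as many at Ncoa2, and fewer at Ncoa1 (4 against 5) and Med1 (4 against 9). Taking libraries of the same number as pairs, 4 of the 7 genes had more peaks with 1,25(OH)2D3 in all 3 pairs, Ncoa3, Ncor1, Crebbp and Ep300, against 33.2% of all genes. With this replicate block the exact permutation p was 0.25 at each of these 4 genes, the smallest that 3 pairs can give.

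Over the 7 genes together, the libraries held 12, 22 and 50 peaks with vehicle and 29, 36 and 55 with 1,25(OH)2D3. The means were 28 ± 19.7 and 40 ± 13.5 (SD, n = 3), and the groups overlapped. Per 10000 peaks of the library, the order of the means was reversed, at 12.9 ± 2.32 with vehicle and 12.1 ± 0.940 with 1,25(OH)2D3. The scaled libraries ran from 10.3 to 14.8 with vehicle and from 11.4 to 13.2 with 1,25(OH)2D3, with overlap.

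Of the 104 regions, 6 (5.77%, 95% Wilson interval 2.67 to 12.0) were hormone-only, against 5.39% of all regions. Another 6 (5.77%) were in all 6 libraries, against 4.99%. None was in each vehicle library and never with hormone (upper Wilson bound 3.56%), a class that holds 0.0299% of all regions. The wide intervals, which cover counting error only, leave differences of this size undetectable with 104 regions. The number of hormone-only regions was 0 with lists of equal length and 10 without 1,25(OH)2D3 replicate 1 or replicate 2. In the latter, fewer hormone libraries had to hold a region. The share of all regions was not computed with these settings, so the changed counts are no result about the 7 genes. In 2 of the 104 regions (1.92%, 95% Wilson interval 0.529 to 6.74, against 0.471% of all) 2 or more vehicle libraries and no hormone library held a peak. These were the one 3.15 kb into Ncoa3 and one 14.2 kb into Ep300 (chromosome 15, 81429784 to 81430275). The interval lies just above the share of all regions but rests on 2 regions, and the difference was not tested. The median of their mean list positions was 23.8, against 45.7 over all regions of this class. A further 64 regions (61.5%, against 62.6% of all) were in 1 library only. Of these, 32 were in vehicle replicate 3 (30.8% of the 104, against 37.0% of all) and 20 in 1,25(OH)2D3 replicate 3 (19.2%, against 14.6%). At all 7 genes some region recurred in 2 or more hormone libraries, against 70.2% of all protein-coding genes. The latter have shorter windows, with a median body length of 15.4 kb against 129.4 kb here.

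**Figure D3:**
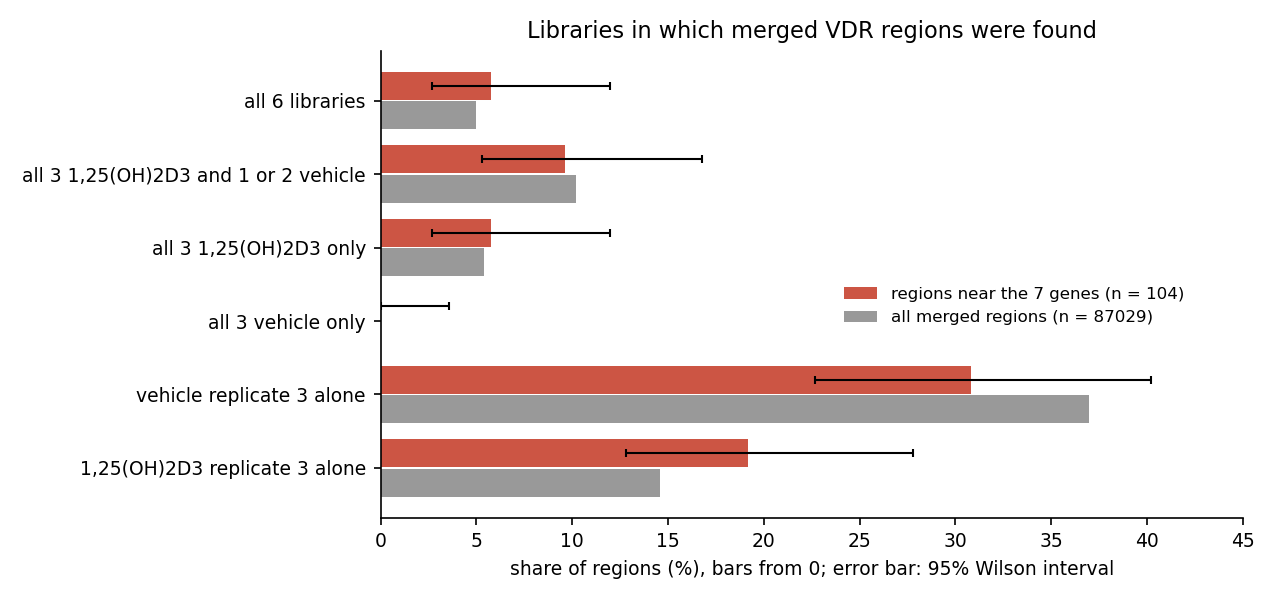
Share of merged regions (horizontal axis, %) found in the libraries named at the left, for the 104 regions near the 7 genes (red, with 95% Wilson intervals) and all 87029 regions (grey). The share of all regions lies within the interval of the 104 regions in each class drawn. The class with 2 or more vehicle and no hormone libraries, where it does not, holds 2 of the 104 regions and is not drawn. The 2 replicate 3 libraries alone account for 52 of the 104 regions.

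By annotation, 70 of the 104 regions lay in introns (67.3%, against 42.1% of all regions), 16 within 1 kb of an annotated start (15.4%, against 11.4%), 3 in exons and 15 between genes (14.4%, against 43.7%). The choice of windows around gene bodies favours introns, so these shares are a description of the windows. A member body held 52 of the regions, and for 50 the nearest protein-coding start was that of the member. Of the 22 regions shared by the hormone libraries, 12 had the member as the nearest start. The neighbours in the windows were Adcy3, Cenpo and 2410017P09Rik at Ncoa1, Prdm14 at Ncoa2, Sulf2 at Ncoa3, Adora2b, Zswim7, Ttc19 and Pigl at Ncor1, Fbxl20 and Cdk12 at Med1, Dnase1 and Trap1 at Crebbp, and L3mbtl2 and Chadl at Ep300.

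A DR3 element with at most 2 mismatches was present within 100 bp of the centre in 43 of the 104 regions (41.3%, 95% Wilson interval 32.4 to 51.0), against 46.0% of all regions. Of the windows 5 kb to the right without unknown bases, 32 of 103 held one near the 7 genes (31.1%) and 34.4% did over all regions. All 6 hormone-only member regions held one (lower Wilson bound 61.0%), where 63.4% of all regions in that class did. Among the 6 in all libraries 3 held one, those at Ncoa2 and upstream of Ncor1, where 71.4% of all regions in that class did. Of the windows 5 kb to the right of these 6, 3 held one as well, against 2 of those beside the 6 hormone-only regions. The regions at the starts of Cdk12 and Dnase1 and in Zswim7 had 3 mismatches at best. A match with 1 mismatch or fewer was present in 9 of the 104 regions (8.65%, against 10.9% of all). The pattern allows more than 1 base at some places, as given with the windows above, so a match is a description and no shown binding site.

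Motifs of other intestinal factors were searched without mismatches on both strands in the same windows. The GATA motif AGATAA was in 17 regions (16.3%, against 18.4% of all regions), the CDX motif CNATAAA in 8 (7.69%, against 14.0%) and the AP-1 motif TGANTCA in 6 (5.77%, against 10.9%). The ETS motif CCGGAAG was in 3 (2.88%, against 1.53%) and the HNF4 motif CAAAGTCCA in 1 (0.962%, against 1.56%). None of these shares was tested.

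A list of 37 other coregulator genes was examined in the same way. Of these, 10 had more peaks in every 1,25(OH)2D3 than in every vehicle library (27.0%, against the 16.0% of all genes) and none the reverse. Without vehicle replicate 3, 24 of the 37 separated, against 42.3% of all genes, and 4 of 37 did per 10000 peaks, against 10.0%, with 1 of 37 in the other direction, against 1.64%. Their median difference was 2 peaks, against 0.667 over all genes. Their median body length was 31.2 kb, against 15.4 kb over all genes, so their windows are longer. At Med12 and Hdac2 no library held a peak. The highest vehicle count was in replicate 3 alone at 26 of the 37, against 15384 of the 22367 protein-coding genes. At 33 of the 37 (89.2%) some region recurred in 2 or more hormone libraries, against 70.2% of all genes.

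Among the 10 coactivators of the p160 and histone-modifying group, Kat5 and Prmt1 separated the groups. Kat5, the acetyltransferase Tip60, had 1, 1 and 2 peaks with vehicle and 5, 4 and 5 with 1,25(OH)2D3. Prmt1, an arginine methyltransferase, had 1 in each vehicle library and 2, 4 and 4. The largest differences were at Ppargc1b (7, 10 and 14 against 13, 21 and 18), Ppargc1a (8, 8 and 17 against 11, 19 and 21) and Ncoa7 (1, 3 and 8 against 6, 9 and 10), where the groups overlapped. Ppargc1a and Ppargc1b encode coactivators of mitochondrial genes. The smallest were at Kat2b (2, 2 and 8 against 2, 2 and 3), Ncoa6 and Carm1, with differences of -1.67, 1.33 and 1.67 peaks.

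Of the 7 other Mediator genes, Med4, Med17 and Med24 separated the groups (42.9%, against 16.0% of all genes). This share rests on 7 genes and was not tested. Med17 had 3, 3 and 5 peaks with vehicle and 7, 8 and 10 with 1,25(OH)2D3. Med24 had 2, 2 and 1, and then 5 in each 1,25(OH)2D3 library. Med4 had 2 in each vehicle library and 4, 5 and 7. Med23 did not separate the groups, with a difference of 3.67, and the smallest differences were at Med14 (-0.333), Med12 (0) and Med13 (2).

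In the SWI/SNF and remodelling group, Smarcd1, a BAF60 subunit, and Baz1b separated the groups, 2 of 9 genes (22.2%, against 16.0% of all genes). Smarcd1 had 2, 4 and 4 peaks with vehicle and 5, 6 and 5 with 1,25(OH)2D3, and Baz1b had 0, 1 and 1 and then 2, 3 and 4. The ATPase gene Smarca4 had the largest difference, 3.33 peaks, with overlap (2, 1 and 9 against 4, 6 and 12). The smallest were at Brd7 (-0.333), Brd9 (0), Smarca2 (0.333) and Smarcd3 (0.333).

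Of the 11 other corepressor genes, Nrip1, Hdac1 and Hr separated the groups (27.3%, against 16.0% of all genes). Nrip1, which encodes RIP140, had 4, 10 and 7 peaks with vehicle and 12, 13 and 18 with 1,25(OH)2D3, the largest difference of the 37 genes at 7.33. Hdac1, a histone deacetylase, had 0, 0 and 1 and then 3, 3 and 7. Hr, the hairless corepressor of VDR, had 1, 2 and 3 and then 4, 8 and 5. At Tbl1xr1, which encodes a subunit of the NCoR corepressor complex, the counts were 2, 2 and 5 with vehicle and 5, 6 and 10 with 1,25(OH)2D3, so the groups met at 5. At Cops2, Hdac2 and Tbl1x the difference was 0.

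**Figure D4:**
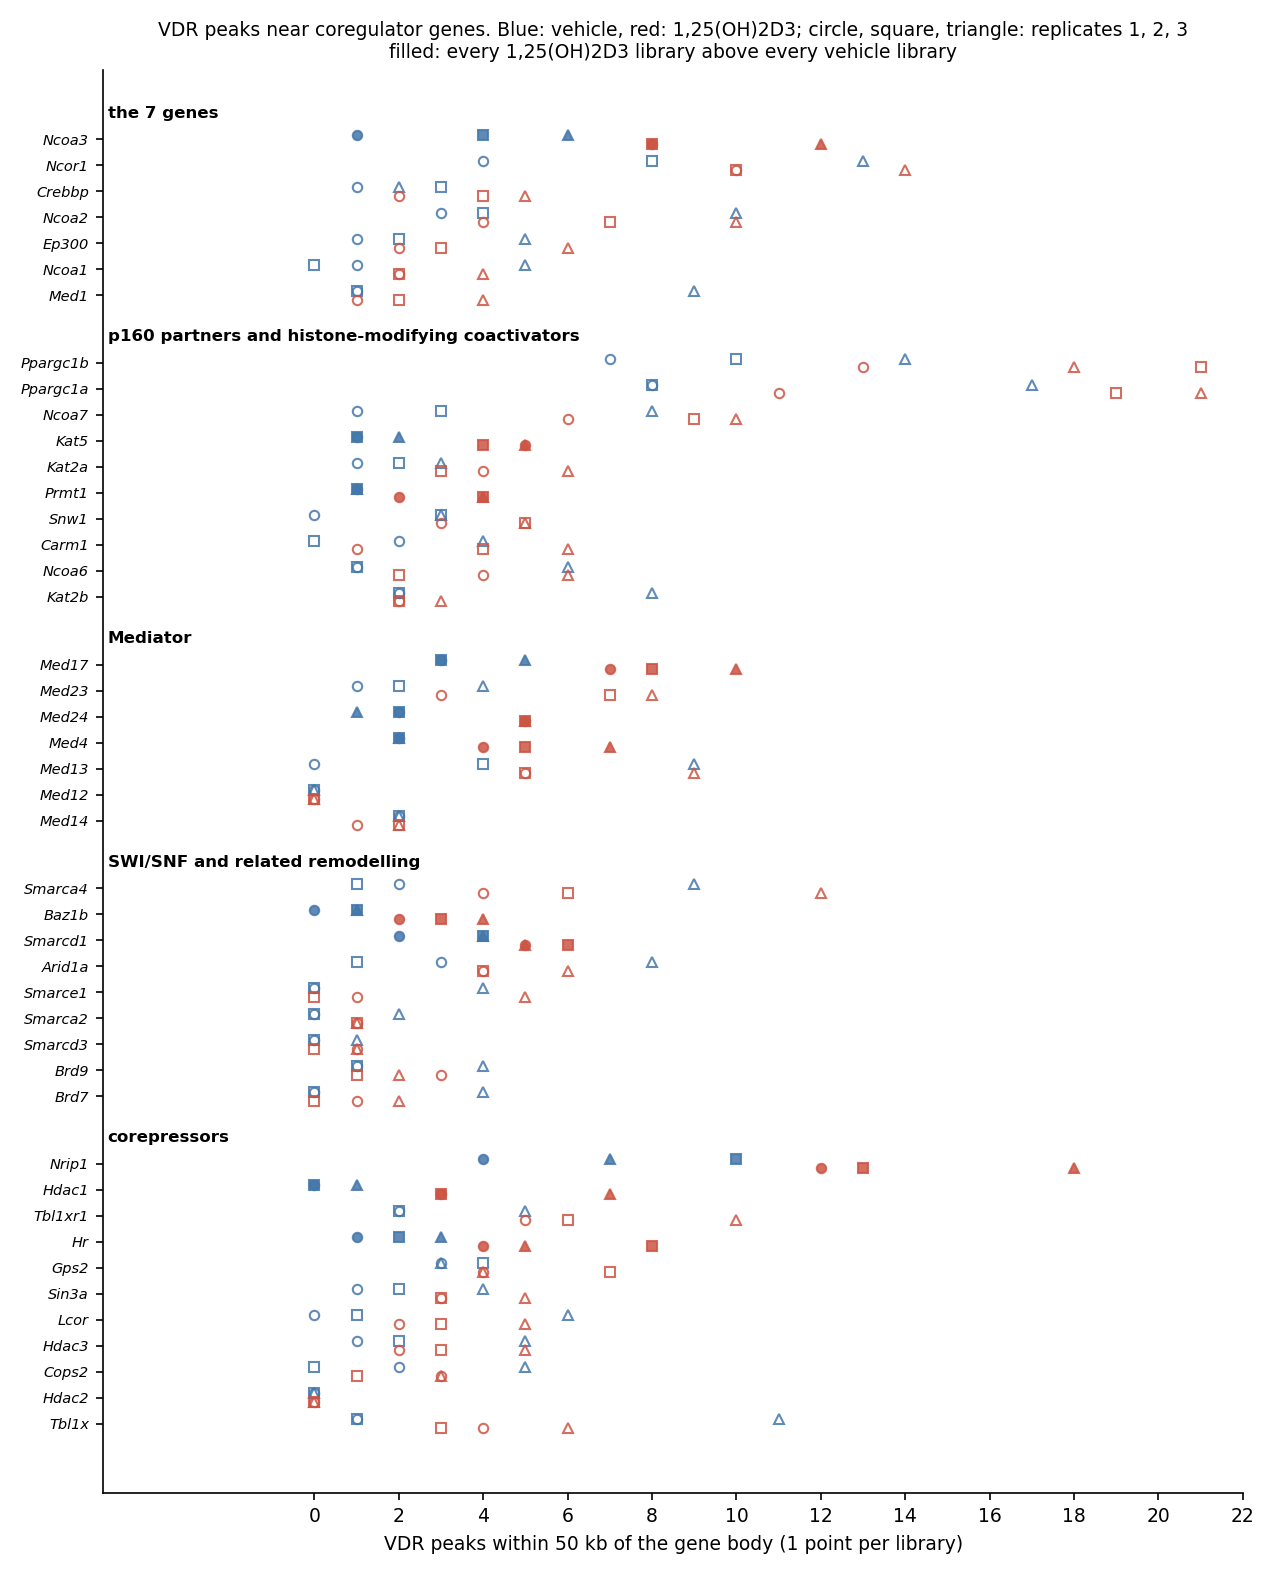
VDR peaks within 50 kb of each gene body (horizontal axis) for the 7 genes and 37 other coregulators by role, 1 point per library, with equal counts drawn on top of each other. Filled symbols mark the genes, Ncoa3 and 10 of the 37, at which every 1,25(OH)2D3 library (red) lies above every vehicle library (blue).

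Likeness to Ncor1, the gene with the most peaks, was measured as the sum over the 6 libraries of the absolute difference in peak number, over 12734 genes with at least 10 peaks and no window shared with it. The most alike was Stk24, at a sum of 3, with 4, 8 and 13 peaks with vehicle and 12, 10 and 13 with 1,25(OH)2D3. Whsc1l1 followed at 4 and 2610528E23Rik at 6, the latter tied with at least 5 further genes and placed by name.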

How the data were processed

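The submitters' processing notes name Bowtie, HOMER and mm9; versions are not given in the sources used here. Per the file headers, the authors ran the peak finder in its factor style on every library separately with the same single input, allowing a false discovery rate of 0.001 and asking for at least 4-fold enrichment over the input and over the local 10 kb and a Poisson p of 0.0001. The deposited score column holds 1 in every row, so only the presence, position and list order of peaks were used. What value the list order follows is not stated.

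Autosomes, X and Y entered. A peak counted towards a gene when its centre lay within 50 kb of the body of a protein-coding gene of GENCODE mouse version 1 (NCBI build 37, which is mm9). Peaks of the 6 libraries overlapping by at least 1 bp were merged, and positions are 1-based. A region's location is that of its centre, where a start within 1 kb takes precedence over an exon, and an exon over an intron. Peak numbers were compared by the exact two-sided permutation test over libraries, with Benjamini-Hochberg adjustment over the 20254 genes with a peak. Python 3.11.15, numpy 2.4.6, pandas 2.3.3 and SciPy 1.17.1 were used, and the functions were tested on simulated data. A later build's promoter table was not used.

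Same-numbered libraries deviated together from their group means over 20254 genes (Pearson r of 0.187, 0.154 and 0.418 for numbers 1, 2 and 3, peaks per 10000), above 0.1 in each pair, so the replicate block is given beside the result. Unlike-numbered pairs of replicates 1 and 2 gave 0.108 (vehicle 1 with 1,25(OH)2D3 2) and 0.0830 (vehicle 2 with 1,25(OH)2D3 1), little lower. Pairs of a replicate 3 with a replicate 1 or 2 gave -0.280 to -0.213. The pairing rests on the data, since the labels do not state one, and replicate 3 shares its depth. The genes and lists were chosen with earlier results of these data known. One gene of the corepressor list is not reported here. The named regions are, for each gene, up to 4 found in all 3 1,25(OH)2D3 libraries with the highest list position, any in all vehicle libraries only and any within 1 kb of a start of the gene. Other coregulators were named by the largest and smallest differences in each role group and where the groups separated, the latter added after the values were seen. The alternatives were other windows, shorter lists, left-out libraries, centre-based merging, scaling to 10000 peaks and other motif settings.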

Additional observations from a re-analysis of the deposited data

How the results depend on the processing

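The difference at Ncoa3 (5.67) was above 0 in the 12 alternatives that could change it, at 4.33 to 6.83 when 1 library was left out. It fell to 0.333 with lists of equal length (the first 8756 listed peaks of each library). A region recurring in 2 or more hormone libraries was found at 7 of 7 genes in the other alternatives, at 5 with lists of equal length and at 6 with the first 50% of each list. The other results moved as follows, and the cause was not tested. The number of genes whose groups did not overlap (1) was 2 with a 100 kb window, 0 with lists of equal length, 0 per 10000 peaks, 3 with replicates 1 and 2 only and 1 to 3 when 1 library was left out (3 without vehicle replicate 3, 2 without 1,25(OH)2D3 replicate 1). With the replicate block the count is of another kind, genes with more peaks in all 3 same-numbered pairs, and was 4. The number of 1,25(OH)2D3-only regions (6) was 10 with a 100 kb window, 0 with lists of equal length, 2 with the first 50% of each list and 6 to 10 with 1 library left out (10 without 1,25(OH)2D3 replicate 1 or 2). The regions in all 6 libraries (6) were 2 with a 10 kb window, 3 with lists of equal length and 6 to 8 with 1 library left out. When 1 library is left out, the counts of genes without overlap and of these 2 kinds of region ask for fewer libraries. Such counts can hold or rise but hardly fall, so these ranges are no measure of stability. Shares over all regions or genes were not computed with other windows, shorter lists or left-out libraries, except for genes without vehicle replicate 3. The difference in peaks over the 7 genes (12) was -1.33 with lists of equal length, -0.804 per 10000 peaks, 27.3 with a 100 kb window, 3 with the first 50% of each list and 4 to 23 with 1 library left out. DR3 elements were in 9 regions with at most 1 mismatch and in 24 within 50 bp of the centre, against 10.9% and 27.7% of all regions.

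For single genes, Med1 turned to 1.33 with a 10 kb window and without vehicle replicate 3 and to 0.5 with replicates 1 and 2 only, with a range of -2.67 to 1.33 over left-out libraries. Med1 kept its direction at -0.555 per 10000 peaks and -0.333 with lists of equal length. It did so as well at -1 with the first 50% of each list and -1.33 with a 100 kb window. Ncoa1 was -0.333 with lists of equal length, -1.33 with the first 50% of each list and -0.333 to 2.17 over left-out libraries, the lowest without vehicle replicate 2. Ncoa2 was 0 with lists of equal length, -0.637 per 10000 peaks and -0.167 to 3.5 over left-out libraries, the lowest without 1,25(OH)2D3 replicate 3. Ncor1 was 0 with lists of equal length, -0.687 per 10000 peaks and 0.833 to 5.33 over left-out libraries. Crebbp was -0.667 with lists of equal length, -0.0906 per 10000 peaks and 1 to 2.5 over left-out libraries. Ep300 was 0 with a 10 kb window and with the first 50% of each list, -0.333 with lists of equal length, -0.103 per 10000 peaks and -0.167 to 2.17 over left-out libraries, the lowest without 1,25(OH)2D3 replicate 3. With 3 complete pairs the replicate block leaves each gene's difference as it is, and its exact p cannot go below 0.25, so it could change no other call.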
